A study of Mus musculus with 20 samples.

Results

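Messenger RNA of 10 circadian clock genes was followed in 20 mouse livers: the activators Arntl (which encodes BMAL1), Clock and Npas2, the repressors Per1, Per2, Per3 and Cry1, the nuclear receptor genes Nr1d1 and Nr1d2 (REV-ERBα and REV-ERBβ), and Dbp, a direct output of the clock. The genes were chosen by symbol, and all 10 were found among the 50559 genes of the count table. All mice carried Cideb fl/fl, a floxed allele of the lipid droplet protein gene Cideb. WT mice had received AAV-TBG-GFP, and KO mice had received AAV-TBG-Cre, in which the TBG promoter restricts Cre to hepatocytes, so that other liver cells keep the gene. Mice of each kind were fed a Western diet (WD, rich in fat, sugar and cholesterol) or CDA-HFD (a high-fat diet deficient in choline and methionine), which gave 4 groups of 5 livers: WT on WD, KO on WD, WT on CDA-HFD and KO on CDA-HFD. The labels give 3 months of feeding for both diets, whereas the study's text and legends describe a longer feeding on WD than on CDA-HFD. They give no age, hour of collection, feeding state or sequencing batch. Diet, feeding time, collection and sequencing therefore cannot be told apart wherever the diets are compared, and p-values measure only the spread between the livers of a group.

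In the clock of nearly every cell, BMAL1 pairs with CLOCK or its paralog NPAS2 and binds E-boxes, through which it turns on the Per, Cry, Nr1d1, Nr1d2 and Dbp genes. PER and CRY proteins then repress the same activators, and the REV-ERB proteins repress Arntl, Npas2, Clock and Cry1 through sites they share with the activating ROR receptors, so that Arntl and Npas2 peak at nearly the opposite time of day from Nr1d1 and Dbp. DBP, TEF and HLF activate D-boxes, where NFIL3 represses, and in liver the clock, feeding, body temperature and glucocorticoids together time many metabolic genes.

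These elements can be read in the promoters of several of the genes, and the matches are shown because they carry the connections along which the genes are grouped here. RefSeq promoter windows of GRCm38.p6, from 250 bases before to 50 bases after a transcript start, matched 9 of the 10 genes, Per2 being the one without an entry. The E-box CACGTG was found in 7.15% of all 32851 windows, its variant CACGTT in 4.68%, the D-box TTATGTAA or TTACGTAA in 1.06% and the ROR element in 0.384%, each searched on both strands. The windows of Clock, Npas2, Nr1d2 and Dbp held none of these letters. The Per3 sites, named upstream and downstream of each other, both lie before its start. Each match below is given 5′ to 3′ on the strand of its gene, with the motif in capitals, and AACGTG is CACGTT read on the other strand.
Arntl, ROR element, chr7:113207528-113207557, plus strand: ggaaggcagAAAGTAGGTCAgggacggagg
Per1, E-box, chr11:69098771-69098800, plus strand: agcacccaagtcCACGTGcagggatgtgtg
Cry1, E-box, chr10:85185097-85185126, minus strand: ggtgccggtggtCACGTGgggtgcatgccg
Cry1, E-box variant, chr10:85185116-85185145, minus strand: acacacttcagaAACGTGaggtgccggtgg
Nr1d1, E-box variant, chr11:98775388-98775417, minus strand: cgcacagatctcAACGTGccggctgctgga
Per3, upstream D-box, chr4:151044852-151044881, minus strand: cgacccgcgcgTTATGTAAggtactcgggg
Per3, downstream D-box, chr4:151044805-151044834, minus strand: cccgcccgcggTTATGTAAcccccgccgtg

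The libraries held 11697049 to 16827147 reads on genes. Cideb itself had 0 to 6 reads in the KO livers and 35 to 100 in the WT livers, with no overlap on either diet. Summed over 6 hepatocyte markers, the livers lay between 31296 and 95239 CPM (counts normalized to a fixed library total after TMM scaling). KO liver 5 on CDA-HFD stood apart from the other 4 livers of its group. Its macrophage markers summed to 2046 CPM over 8 genes, its stellate cell markers to 3517 CPM over 8 genes and its cholangiocyte markers to 651 CPM over 6 genes, each the highest of its group and within or above the range of the WT livers on CDA-HFD (1709 to 3599, 2006 to 3328 and 365 to 795 CPM). Its hepatocyte markers, at 32938 CPM, were the lowest of its group, and Alb alone gave 24399 CPM of that sum. Lyz2 (865 CPM) and Gpnmb (699 CPM) gave much of its macrophage sum. Some single markers went the other way. Cyp3a11, at 2290 CPM, was the highest of its group (1657 to 2060 CPM in the other livers). The macrophage markers Clec4f (25.7 against 122 to 151 CPM) and Cd5l (52.1 against 102 to 156 CPM) were the lowest. Counts of genes past the threshold in the comparisons that include KO liver 5 are given with and without it. This liver was singled out after the data were seen, so p-values without it are descriptive.

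The levels of the clock genes covered a wide range. Scaled to exon length, the REV-ERB gene Nr1d2 was highest in WT livers on WD, at 33.6 ± 2.37 CPM per kilobase (SD, n = 5), followed by Dbp at 23.5 ± 3.48, Nr1d1 at 18.3 ± 2.82, Per1 at 16.6 ± 4.11, Per2 at 13.7 ± 2.48 and Per3 at 10.6 ± 1.61. Clock (4.89 ± 0.75 CPM per kilobase) and Cry1 (4.27 ± 1.49) followed, and Arntl (0.68 ± 0.33) and Npas2 (0.065 ± 0.047) were lowest. Within this order Nr1d1 and Per1, Per1 and Per2, and Clock and Cry1 differed by less than the larger SD of the pair. Npas2 rested on 0 to 18 reads per liver, and Arntl on 30 to 157.

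**Figure D1:**
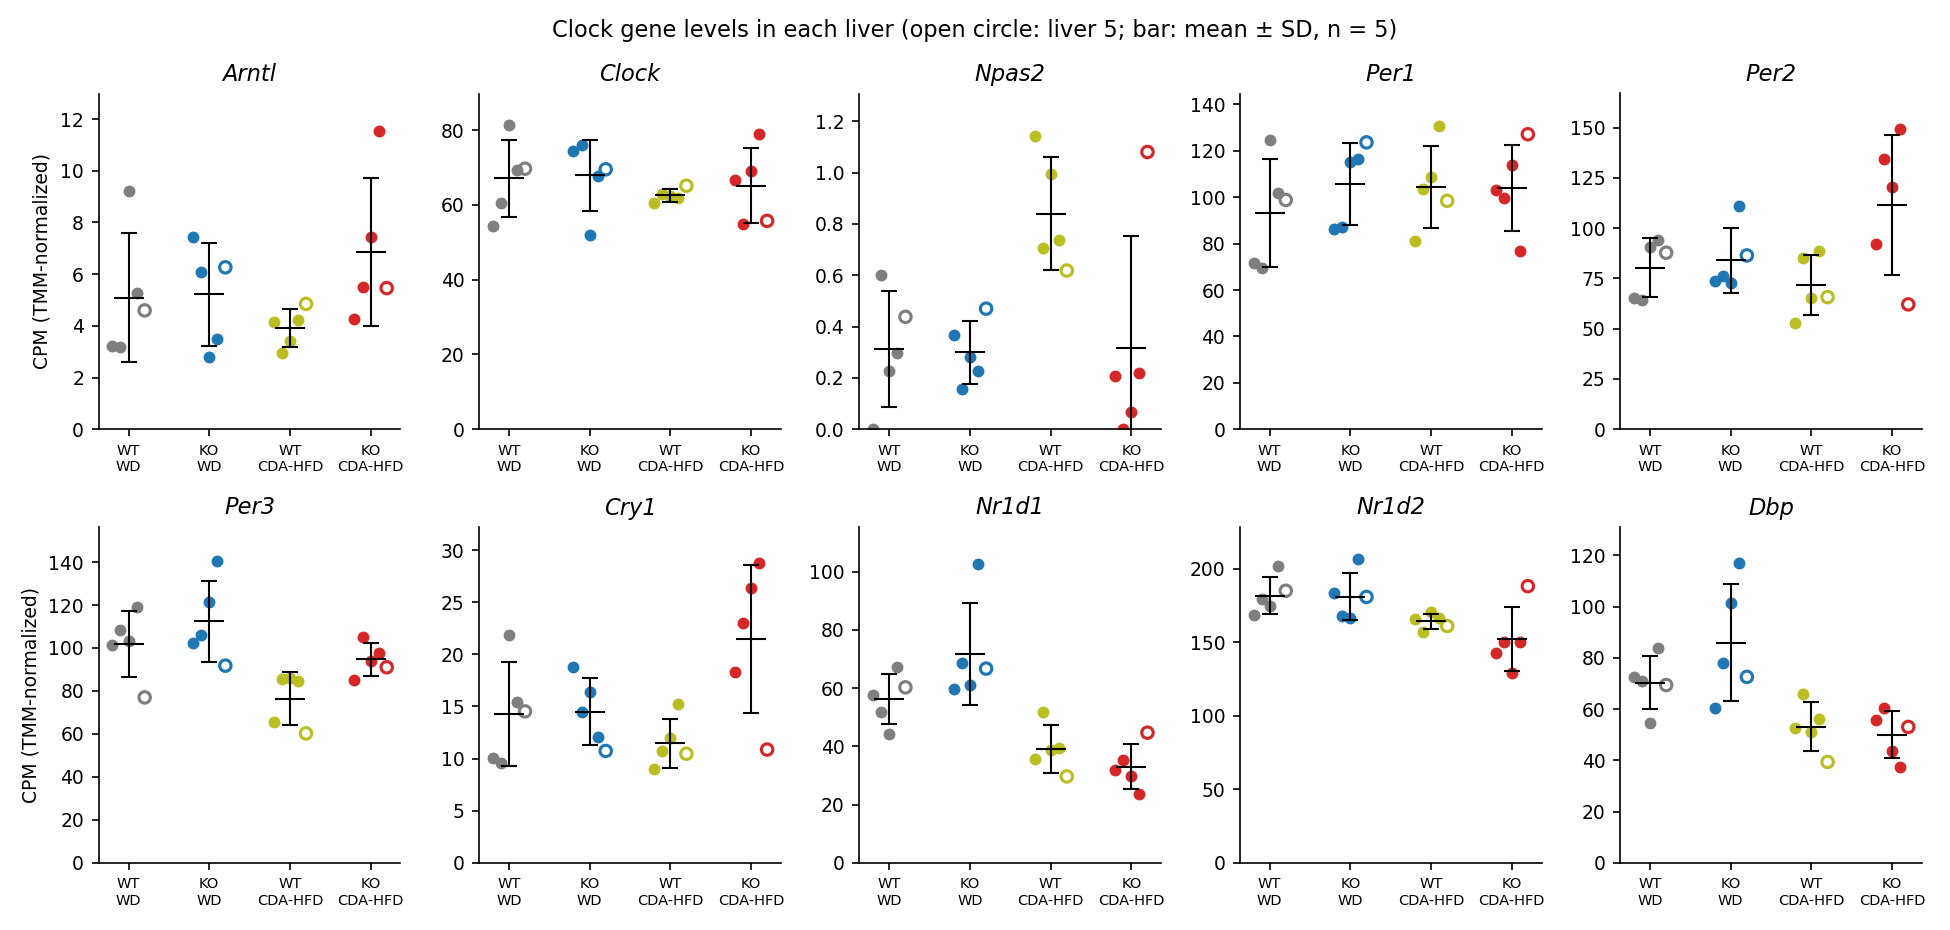
Level of each clock gene (CPM with TMM scaling, vertical axis) in each liver of the 4 groups. Points are livers, open circles are liver 5, and bars give the mean ± SD (n = 5, cut at 0 for Npas2). On CDA-HFD, Cry1 and Per2 of 4 KO livers lay above all WT livers and KO liver 5 among them.

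Hepatocyte deletion of Cideb on WD left the clock genes without a detectable difference. None of the 9 genes that could be tested passed at an adjusted p under 0.05 in edgeR's quasi-likelihood test, and neither did any with DESeq2, against 0.0757% of all genes (12 of 15848) in edgeR. Npas2 was too low to be tested. At an unadjusted p under 0.05, 1 of the 9, Nr1d1, was below the threshold, beside 1702 of all 15848 genes.

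Nr1d1 read 57.7, 51.8, 44.3, 67.2 and 60.3 CPM in WT livers 1 to 5 on WD and 59.7, 68.8, 61.0, 103 and 66.7 CPM in the KO livers. The groups overlapped, and KO liver 4 lay far above the rest of its group. The log2 fold change was 0.36 (SE 0.16, edgeR adjusted p = 0.454, unadjusted p = 0.0444), and an exact two-sided permutation test of the CPM gave p = 0.0635. Dbp had a log2 fold change of 0.30 (SE 0.17, edgeR adjusted p = 0.563). Over the 9 genes the median log2 fold change was 0.07, beside 0.01 over all genes tested.

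The 5 largest of the remaining values were no larger than their standard errors or only slightly so: Per1 differed by 0.18 on the log2 scale (SE 0.17), Per3 by 0.15 (SE 0.14), Per2 by 0.07 (SE 0.15), Arntl by 0.03 (SE 0.34) and Clock by 0.02 (SE 0.13). Arntl spread widely within both groups on WD. Its level was 3.21, 3.18, 9.23, 5.26 and 4.60 CPM in WT livers 1 to 5, and 7.45, 6.07, 2.80, 3.49 and 6.26 CPM in KO livers 1 to 5. A range of about this width in each group meant that the standard error of Arntl on WD was the largest of the 9 genes.

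On CDA-HFD, Cry1 was higher in KO than in WT livers and was the 1 of 10 clock genes that passed, where 15.5% of all genes (2664 of 17204) did. Cry1, the cryptochrome that represses the CLOCK-BMAL1 pair, read 8.96, 10.7, 11.99, 15.2 and 10.5 CPM in WT livers 1 to 5 and 18.3, 23.0, 26.3, 28.7 and 10.9 CPM in KO livers 1 to 5. All KO livers except liver 5 lay above the highest WT liver. The log2 fold change was 0.90 (SE 0.24, edgeR adjusted p = 0.0331), and the exact two-sided permutation test gave p = 0.0238, where the smallest value that 5 livers against 5 allow is 0.00794. The call was lost in 8 of the 10 fits that left out 1 liver, with edgeR adjusted p up to 0.0869. It was kept without WT liver 4 and, at a log2 fold change of 1.07 and an edgeR adjusted p of 0.000742, without KO liver 5.

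Arntl, the activator without which the clock stops, read 4.13, 2.96, 3.42, 4.23 and 4.85 CPM in WT livers 1 to 5 on CDA-HFD and 4.25, 5.51, 7.45, 11.5 and 5.46 CPM in the KO livers. Among the KO livers, only liver 1 was as low as any WT liver. The log2 fold change of 0.79 (SE 0.26) did not pass (edgeR adjusted p = 0.0594, exact permutation p = 0.0159). Without KO liver 5 it was 0.86 (edgeR adjusted p = 0.0222).

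Per2, the period gene that also responds directly to glucocorticoids and temperature, read 52.9, 85.0, 65.5, 88.8 and 65.7 CPM in WT livers 1 to 5 on CDA-HFD and 92.2, 134, 120.2, 149 and 62.1 CPM in the KO livers. As with Cry1, 4 KO livers lay above all WT livers and liver 5 lay among them. The log2 fold change was 0.64 (SE 0.23, edgeR adjusted p = 0.0769, exact permutation p = 0.0556), and without KO liver 5 it was 0.79 (edgeR adjusted p = 0.00397). For Per3 the log2 fold change was 0.30 (SE 0.12, edgeR adjusted p = 0.0951), with 60.3 to 85.9 CPM in the WT and 85.2 to 105 CPM in the KO livers. For Per1 it was -0.01 (SE 0.15), with 81.3 to 131 CPM in the WT and 76.9 to 127 CPM in the KO livers.

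Npas2, the paralog that can stand in for CLOCK, went the other way but on few reads. WT livers 1 to 5 on CDA-HFD had 18, 10, 18, 11 and 13 Npas2 reads, and KO livers 1 to 5 had 3, 0, 1, 3 and 18. KO livers 1 to 4 were below all WT livers, and liver 5 had as many reads as the highest of them. The log2 fold change of -1.35 (SE 0.65) did not pass (edgeR adjusted p = 0.163). Without KO liver 5 it was -2.73 (edgeR adjusted p = 0.00176). Since that liver had as many reads as the highest WT livers, leaving it out could only widen the difference.

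The REV-ERB genes and Dbp did not pass. Nr1d1 differed by -0.24 on the log2 scale (SE 0.18, edgeR adjusted p = 0.346), Nr1d2 by -0.12 (SE 0.10, edgeR adjusted p = 0.426), Dbp by -0.09 (SE 0.16, edgeR adjusted p = 0.715) and Clock by 0.05 (SE 0.10). The median log2 fold change over the 10 genes was 0.02, beside 0.00499 over all genes. Without KO liver 5, Arntl, Per2 and Cry1 were higher and Npas2 was lower, which is 4 of 10, while the share of all genes that passed rose to 41.4% (7201 of 17411).

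Some cell type markers differed in the same comparison, where 15.5% of all genes passed. With all livers, the counts for stellate cells and hepatocytes lay near that share. Of the markers on CDA-HFD, 4 of 8 for macrophages (Cd68 with the smallest p, -1.53), 1 of 8 for stellate cells (Acta2, -1.90) and 3 of 3 tested for neutrophils (S100a8, -2.90) were lower in KO livers, and 1 of 6 for hepatocytes (Hnf4a, 0.84) was higher. With all livers none of 6 cholangiocyte, 6 endothelial and 7 lymphocyte markers passed in edgeR, with 2, 3 and 0 at an unadjusted p under 0.05 (6076 of 17204 over all genes) and 2, 2 and 0 with DESeq2. Many more passed when KO liver 5 was left out: 6 of 8 macrophage (Cd68, -2.05), 6 of 8 stellate cell (Col3a1, -1.64), 6 of 6 cholangiocyte (Spp1, -2.42), 3 of 3 neutrophil (S100a8, -3.23) and 1 of 7 lymphocyte markers (Ltb, -1.22) were lower in KO livers, and 5 of 6 endothelial (Ptprb, 0.58), 3 of 6 hepatocyte (Hnf4a, 0.95) and 1 macrophage marker were higher, beside the 41.4% of all genes. None of these genes was at 0 throughout a group.

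The summed markers separated 4 KO livers from the WT livers on CDA-HFD. Macrophage markers summed to 587 to 730 CPM in KO livers 1 to 4, stellate cell markers to 1026 to 1265 CPM and cholangiocyte markers to 68.0 to 171 CPM, all below the WT ranges, while KO liver 5 lay within or above those ranges. A single gene can carry such a sum: in KO liver 5, Spp1 gave 561 of the 651 CPM of the cholangiocyte markers. The macrophage marker Clec4f leaned the other way, with 122 to 151 CPM in KO livers 1 to 4 and 57.2 to 127 CPM in WT livers. Endothelial markers summed to 673 to 782 CPM in KO livers 1 to 4, above the 449 to 550 CPM of the WT livers, and to 400.2 CPM in KO liver 5. In the interaction no marker passed in edgeR or DESeq2 with all livers, and 2 hepatocyte, 1 stellate cell and 1 endothelial marker had an unadjusted p under 0.05 in edgeR, beside 2736 of all 17804 genes. In the fit that left out KO liver 5, 4 macrophage, 4 cholangiocyte, 4 endothelial, 2 stellate cell and 1 hepatocyte marker passed there, beside 11.9% of all genes. Calls of markers and of clock genes both rose when KO liver 5 was left out. Between KO and WT livers on CDA-HFD, calls over all genes rose as well, from 15.5 to 41.4%. KO liver 5 was set apart by these same markers, so the rise in both cannot show a link between them. The part of the cell mixture in the clock gene values was not tested, and in whole liver, fewer cells of a type and less RNA per cell cannot be told apart.

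**Figure D2:**
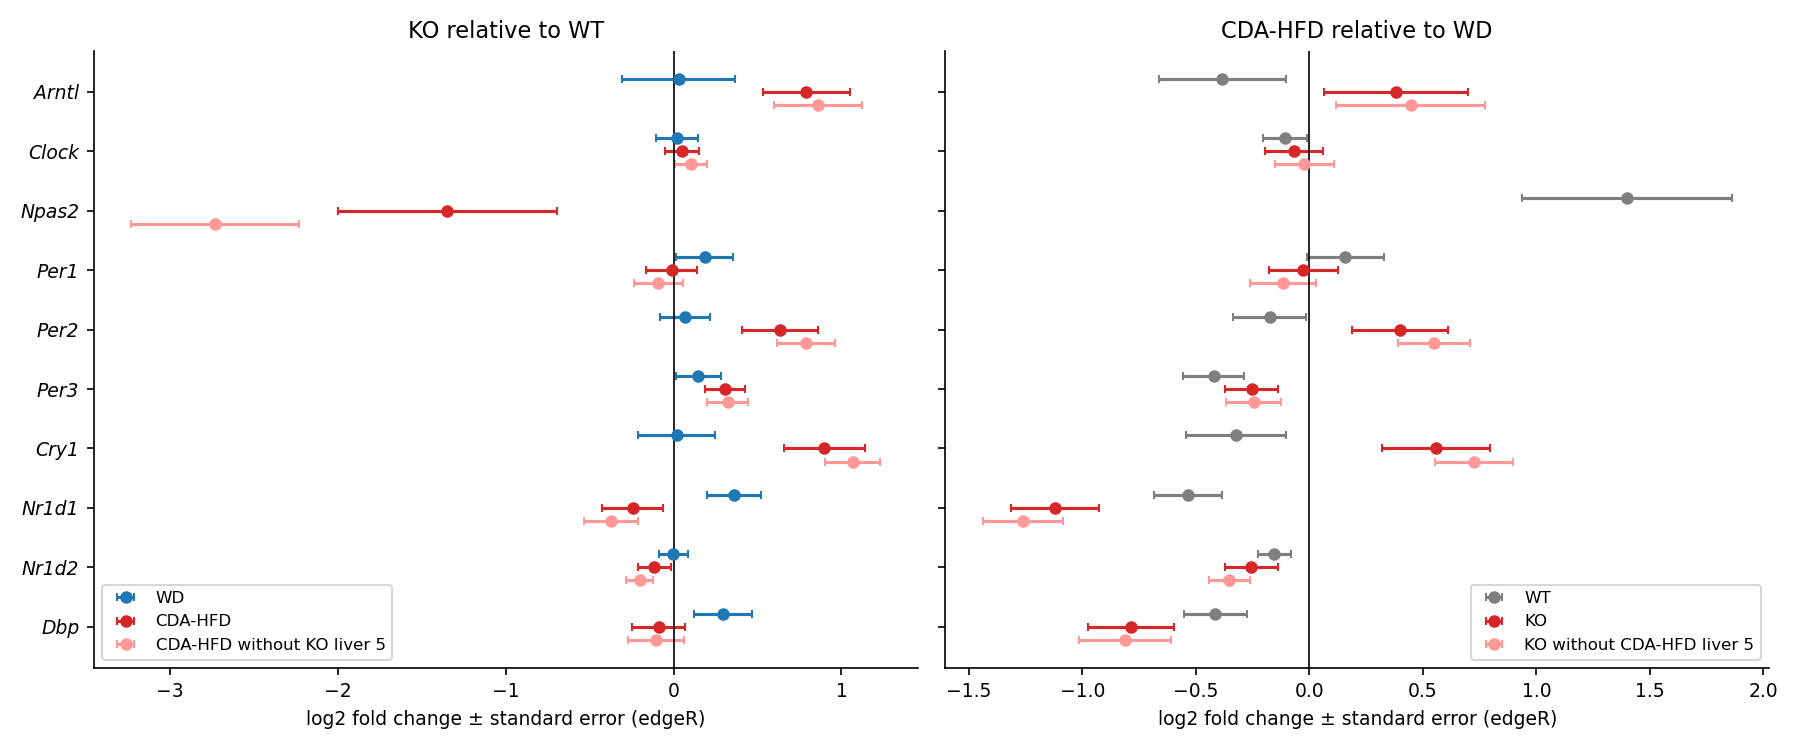
Log2 fold changes with standard errors (edgeR, horizontal axis) of the clock genes for KO relative to WT on each diet (left) and for CDA-HFD relative to WD in each genotype (right), with the values without KO liver 5 on CDA-HFD in pale red. Npas2 is shown where it could be tested. Cry1 sits at 0.90 for KO on CDA-HFD and at 0.02 on WD, and Nr1d1 lies below 0 in both diet comparisons.

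The diet comparison in WT livers had the most clock genes past the threshold, 4 of 10, a share below the 51.1% of all genes that passed (8542 of 16726). Nr1d1, Per3 and Dbp were lower and Npas2 was higher on CDA-HFD. Nr1d1 fell from 56.2 ± 8.66 CPM on WD to 39.1 ± 8.10 CPM on CDA-HFD (SD, n = 5 each), with values of 35.7, 51.8, 38.7, 39.5 and 29.7 CPM in the CDA-HFD livers, of which liver 2 lay within the range of the WD livers. The log2 fold change was -0.53 (SE 0.15, edgeR adjusted p = 0.0102, exact permutation p = 0.0159), and the call was kept without any 1 liver, with edgeR adjusted p up to 0.0275.

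Dbp, whose product drives D-box genes, read 72.4, 71.1, 54.6, 83.8 and 69.4 CPM in WT livers on WD and 52.7, 66.0, 51.3, 56.0 and 39.4 CPM in WT livers on CDA-HFD. Liver 3 on WD lay within the range of the CDA-HFD livers, and the log2 fold change was -0.41 (SE 0.14, edgeR adjusted p = 0.0262). Per3 read 102, 108, 103, 119 and 76.99 CPM on WD and 65.6, 85.4, 85.9, 84.9 and 60.3 CPM on CDA-HFD, a log2 fold change of -0.42 (SE 0.13, edgeR adjusted p = 0.0211), with WD liver 5 the only one of its group within the CDA-HFD range. Npas2 had 0, 7, 3, 3 and 6 reads in WT livers 1 to 5 on WD, all below the 10 to 18 reads on CDA-HFD. Its log2 fold change was 1.40 (SE 0.46, edgeR adjusted p = 0.0240), and the CPM of the groups did not overlap (exact permutation p = 0.00794, the smallest possible).

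The count of 4 fell to 2 without WT liver 4 on WD, without WT liver 3 on CDA-HFD or without WT liver 5 on CDA-HFD. Dbp lost its call in each of these fits (edgeR adjusted p up to 0.0658), Per3 without WT liver 4 on WD or without WT liver 1 or 5 on CDA-HFD (edgeR adjusted p up to 0.0536), and Npas2 without liver 3 of either diet (edgeR adjusted p up to 0.0562). The other 6 genes did not pass: Arntl differed by -0.38 on the log2 scale (SE 0.28), Cry1 by -0.32 (SE 0.22), Per2 by -0.17 (SE 0.16), Per1 by 0.16 (SE 0.17), Nr1d2 by -0.15 (SE 0.07) and Clock by -0.11 (SE 0.10). With DESeq2 a count of 5 passed, Nr1d2 among them (DESeq2 adjusted p = 0.0354). The median over the 10 genes was -0.25, beside -0.00316 over all genes.

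In KO livers 2 of the 9 clock genes tested passed between the diets, both lower on CDA-HFD, where 17.0% of all genes did (2792 of 16387). Nr1d1 was 59.7 to 103 CPM in KO livers on WD and 31.9, 35.2, 29.9, 23.6 and 44.7 CPM in KO livers 1 to 5 on CDA-HFD. The groups did not overlap, and the log2 fold change was -1.12 (SE 0.19, edgeR adjusted p = 0.00361, exact permutation p = 0.00794). Dbp was 60.4, 78.2, 101, 117 and 72.6 CPM on WD and 55.7, 60.3, 43.6, 37.6 and 53.0 CPM on CDA-HFD, with a gap of under 1 CPM between the groups and a log2 fold change of -0.79 (SE 0.19, edgeR adjusted p = 0.0188, exact permutation p = 0.00794). Both calls were kept without any 1 liver (edgeR adjusted p up to 0.0118 for Nr1d1 and 0.0409 for Dbp).

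Among the KO livers the repressors Cry1 and Per2 and the activator Arntl had positive values that did not pass: Cry1 differed by 0.56 on the log2 scale between the diets (SE 0.24, edgeR adjusted p = 0.125), Per2 by 0.40 (SE 0.21, edgeR adjusted p = 0.208) and Arntl by 0.38 (SE 0.32, edgeR adjusted p = 0.430). The median over the 9 genes was -0.07, beside 0.00326 over all genes. Without KO liver 5 on CDA-HFD, 5 of 9 passed: Cry1 at 0.73 (edgeR adjusted p = 0.0148) and Per2 at 0.55 (edgeR adjusted p = 0.0341) were higher, and Nr1d1 at -1.26, Dbp at -0.81 and Nr1d2 at -0.35 (edgeR adjusted p = 0.0220) were lower, with 17.4% of all genes passing.

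The directions of the diet comparison depend on how libraries are scaled. With library size alone in place of TMM, the median log2 fold change of all genes moved by 0.42 in WT and 0.25 in KO livers, and the share of calls that were higher on CDA-HFD moved from 50.7 to 85.3% in WT and from 53.9 to 85.9% in KO livers. The WT clock genes then split into 4 higher and 0 lower in place of 1 higher and 3 lower, with Nr1d1 at -0.12, Per3 at -0.01 and Dbp at -0.00299, and those of the KO livers into 2 higher and 1 lower in place of 0 and 2. In WT livers, Nr1d1, Per3 and Dbp did not pass with library size alone (edgeR adjusted p = 0.467, 0.969 and 0.987). A change of scaling shifts all genes by nearly the same amount. That these genes lay below the median of all genes under both scalings is therefore not a separate check. In KO against WT on CDA-HFD the median moved by -0.19 and the higher share of calls from 52.9 to 30.3%, and Cry1 remained the 1 gene that passed, at 0.67.

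The difference between the diets in the effect of the deletion was tested in a model of all 20 livers. None of the 10 clock genes passed in edgeR, where 0.556% of all genes (99 of 17804) did, and none passed with DESeq2. At an unadjusted p under 0.05 there were 2 genes, Cry1 with an interaction of 0.88 on the log2 scale (SE 0.35, edgeR adjusted p = 0.241) and Nr1d1 with -0.59 (SE 0.25, edgeR adjusted p = 0.267). Of all genes, 2736 of 17804 reached that unadjusted p. Arntl had 0.77 (SE 0.45), Per2 0.58 (SE 0.28) and Npas2 -1.29 (SE 0.97). The pass of Cry1 on CDA-HFD and not on WD is therefore not shown to be a difference between the diets with all livers. Without KO liver 5 on CDA-HFD, Cry1 (1.05, edgeR adjusted p = 0.0306) and Npas2 (-2.66, edgeR adjusted p = 0.0420) passed, among 11.9% of all genes.

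Since the hour of collection is not recorded, the ratio of Arntl to Nr1d1, genes with opposite phases, was computed within each library, where scaling cancels. On the log2 scale of reads it averaged -3.56 ± 0.75 in WT livers on WD, -3.84 ± 0.78 in KO livers on WD, -3.30 ± 0.55 in WT livers on CDA-HFD and -2.32 ± 0.82 in KO livers on CDA-HFD (SD, n = 5 each). Single livers ran from -4.86, in KO liver 4 on WD, to -1.03, in KO liver 4 on CDA-HFD. KO livers 1 to 5 on CDA-HFD had -2.90, -2.67, -1.998, -1.03 and -3.03, and WT livers 1 to 5 on CDA-HFD had -3.10, -4.11, -3.49, -3.21 and -2.61, so that the groups overlapped. The values describe where the livers lie, and whether they reflect the hour of collection was not tested.

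**Figure D3:**
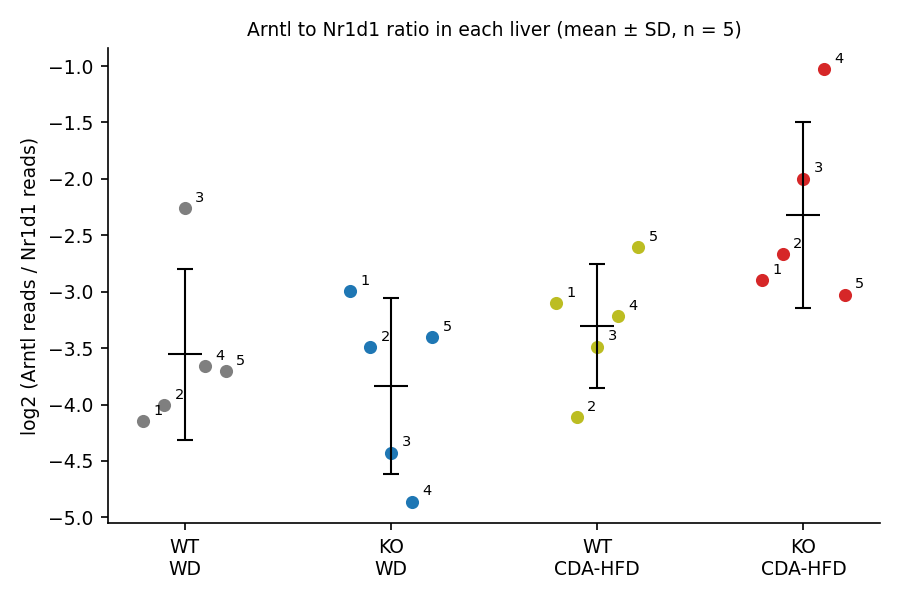
Log2 ratio of Arntl reads to Nr1d1 reads (vertical axis, 0.5 added to each) in each liver of the 4 groups, with liver numbers beside the points and bars for the mean ± SD (n = 5). KO livers on CDA-HFD span -3.03 to -1.03, and WT liver 3 on WD lies apart from its group at -2.26.

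For Npas2 to Dbp no group mean is given, since WT liver 1 on WD and KO liver 2 on CDA-HFD had 0 Npas2 reads, and their ratios are set by the 0.5 added to the reads. The other WT livers on WD had -7.92 to -6.79, the KO livers on WD -8.78 to -7.16 and KO livers 1, 3 and 4 on CDA-HFD -8.77 to -7.19. WT livers on CDA-HFD had -6.48 to -5.49 and stood above all of these, and KO liver 5 on CDA-HFD lay among them at -5.58. Many of these ratios rest on few Npas2 reads.

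On the log2 scale, livers of the same group differed most in Npas2 and Arntl, the clock genes with the fewest reads. The part of counting noise in this was not tested. The pooled SD within groups on the log2 scale was 0.79 for Npas2, 0.52 for Arntl, 0.43 for Cry1, 0.35 for Per2, 0.29 for Nr1d1, Dbp and Per1, 0.21 for Per3, 0.19 for Clock and 0.13 for Nr1d2, beside a median of 0.29 over 17804 genes. Against genes of similar level, Per2 stood at the 89.9th percentile of this spread, Cry1 at the 87.4th, Arntl at the 85.3rd, Nr1d1 at the 85.1st and Dbp at the 85.0th. Npas2 stood at the 82.4th, Per1 at the 81.9th, Per3 at the 66.2nd, Clock at the 61.1st and Nr1d2 at the 19.2nd.

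Within groups, 2 of the 9 other clock genes were related to Arntl past the threshold, Clock in the same direction and Dbp in the opposite one. With each group centred on its mean, Clock rose with Arntl over the 20 livers (Pearson r = 0.81, Spearman rho = 0.79, permutation p adjusted over the 9 genes compared with Arntl = 0.00112 for r and 0.00211 for rho), and Dbp fell with it (r = -0.79, rho = -0.79, the same adjusted p-values). Without WT liver 3 and KO liver 3 on WD, the livers farthest from the median of Arntl, r was 0.72 for Clock and -0.76 for Dbp, and without KO liver 5 on CDA-HFD, 0.82 and -0.79 (permutation p adjusted = 0.00288 for both). Clock passed within the 10 WD livers alone (r = 0.90, permutation p adjusted = 0.00900) and not within the 10 CDA-HFD livers (r = 0.64, permutation p adjusted = 0.441). Dbp passed within the CDA-HFD livers (r = -0.84, permutation p adjusted = 0.0237) and not within the WD livers (r = -0.77, permutation p adjusted = 0.0813). Each relation thus passed in 1 diet and had the same sign in the other, and the difference between the diets was not tested.

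Cry1 (r = 0.55, rho = 0.51) and Nr1d1 (r = -0.54, rho = -0.52) had the next largest values, with a permutation p adjusted of 0.0704 for both r. The r of Per2 with Arntl was 0.32, that of Per3 -0.29, and those of Per1, Npas2 and Nr1d2 were 0.04, 0.03 and -0.05. All these levels come from the same libraries and share their depth and scaling.

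**Figure D4:**
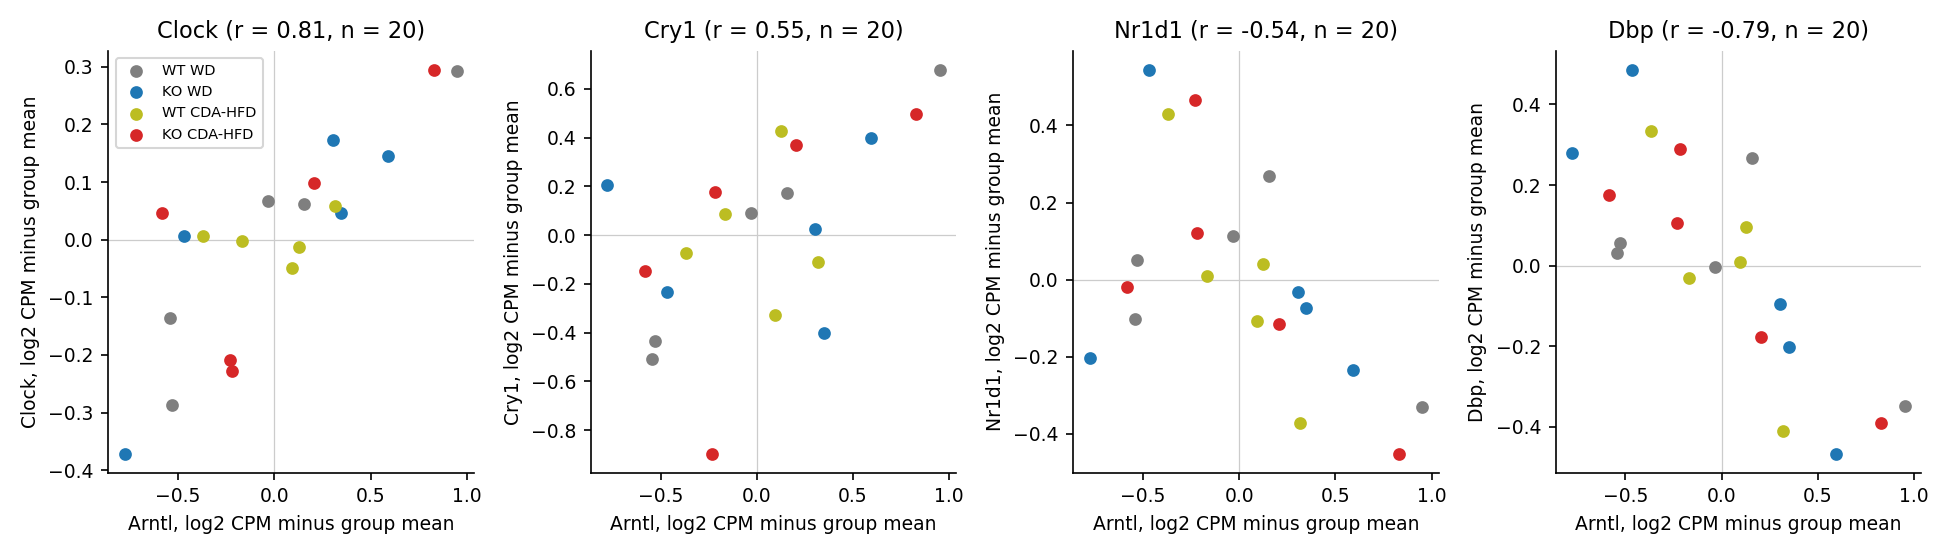
Level of Clock, Cry1, Nr1d1 and Dbp (vertical axes) against Arntl (horizontal axes), as log2 CPM minus the mean of the group, in 20 livers coloured by group. Clock rises and Dbp falls with Arntl, with r of 0.81 and -0.79.

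Among 11037 genes of sufficient level, those most like Arntl over the 20 centred livers were Paip1 (r = 0.89), Nfil3 (0.84), Ddx3x (0.83), Clock (0.81) and Tlk2 (0.80). The most opposite were Haus5 (-0.85), Pcif1 (-0.84), Wdr25 (-0.83), Them6 (-0.79) and Dbp (-0.79). Nfil3, the D-box repressor, and Clock are thus the clock genes among the 5 most like Arntl, and Dbp is among the 5 most opposite.

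Of 22 other clock genes, all but Rorb were high enough to be tested. On WD none of 21 passed between KO and WT livers in edgeR or DESeq2, and Cry2 (0.25, unadjusted p = 0.0179) and Timeless (-0.35, unadjusted p = 0.0104) were the 2 below an unadjusted p of 0.05. Of all genes, 1702 of 15848 were below it. On CDA-HFD 5 of 21 were higher in KO livers, among them the cryptochrome Cry2 (log2 fold change 0.63, edgeR adjusted p = 0.00786), the D-box activator Hlf (0.88), Nfil3 (0.86) and the deubiquitinase Usp2 (0.83). Bhlhe41 (DEC2), which represses at E-boxes, was lower (-1.12). These are 6 of 21, beside 15.5% of all genes.

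Cry2 read 32.7, 36.3, 29.99, 38.8 and 36.0 CPM in WT livers 1 to 5 on CDA-HFD and 59.5, 53.0, 56.5, 48.4 and 52.3 CPM in the KO livers, without overlap and with liver 5 near the middle of its group. Bhlhe41 read 24.9, 15.1, 21.2, 12.8 and 17.5 CPM in WT and 7.94, 7.16, 5.39, 4.93 and 16.8 CPM in KO livers. For Bhlhe41, KO liver 5 alone had a level seen in WT livers. Without it, 6 of the 21 were higher and 4 lower, beside 41.4% of all genes.

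Between the diets in WT livers, 9 of the 21 other clock genes were lower on CDA-HFD and 3 were higher, a share near the 51.1% of all genes that passed. The lower ones included Nfil3 (-1.55), Hlf (-0.94), Usp2 (-0.85), Cry2 (-0.67), Bhlhe40 (-0.55), the D-box activator Tef (-0.43), Rora (-0.33) and the casein kinase gene Csnk1d (-0.17), and the higher ones were Bhlhe41 (1.10), the BMAL1 paralog gene Arntl2 (0.65) and Csnk1e (0.53). In KO livers, Nfil3 (-0.89) and Cry2 (-0.28) were lower and Csnk1e (0.61) was higher, beside 17.0% of all genes. Without KO liver 5 on CDA-HFD 2 were higher and 1 lower, beside 17.4% of all genes. None passed in the interaction in edgeR with all livers (6 at an unadjusted p under 0.05, 1 with DESeq2), beside 0.556% of all genes, and 2736 of 17804 at the unadjusted p. Without KO liver 5 on CDA-HFD 4 passed there, beside 11.9% of all genes. These comparisons share their WT livers on CDA-HFD, so the values of one genotype comparison and one diet comparison are not independent.

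**Figure D5:**
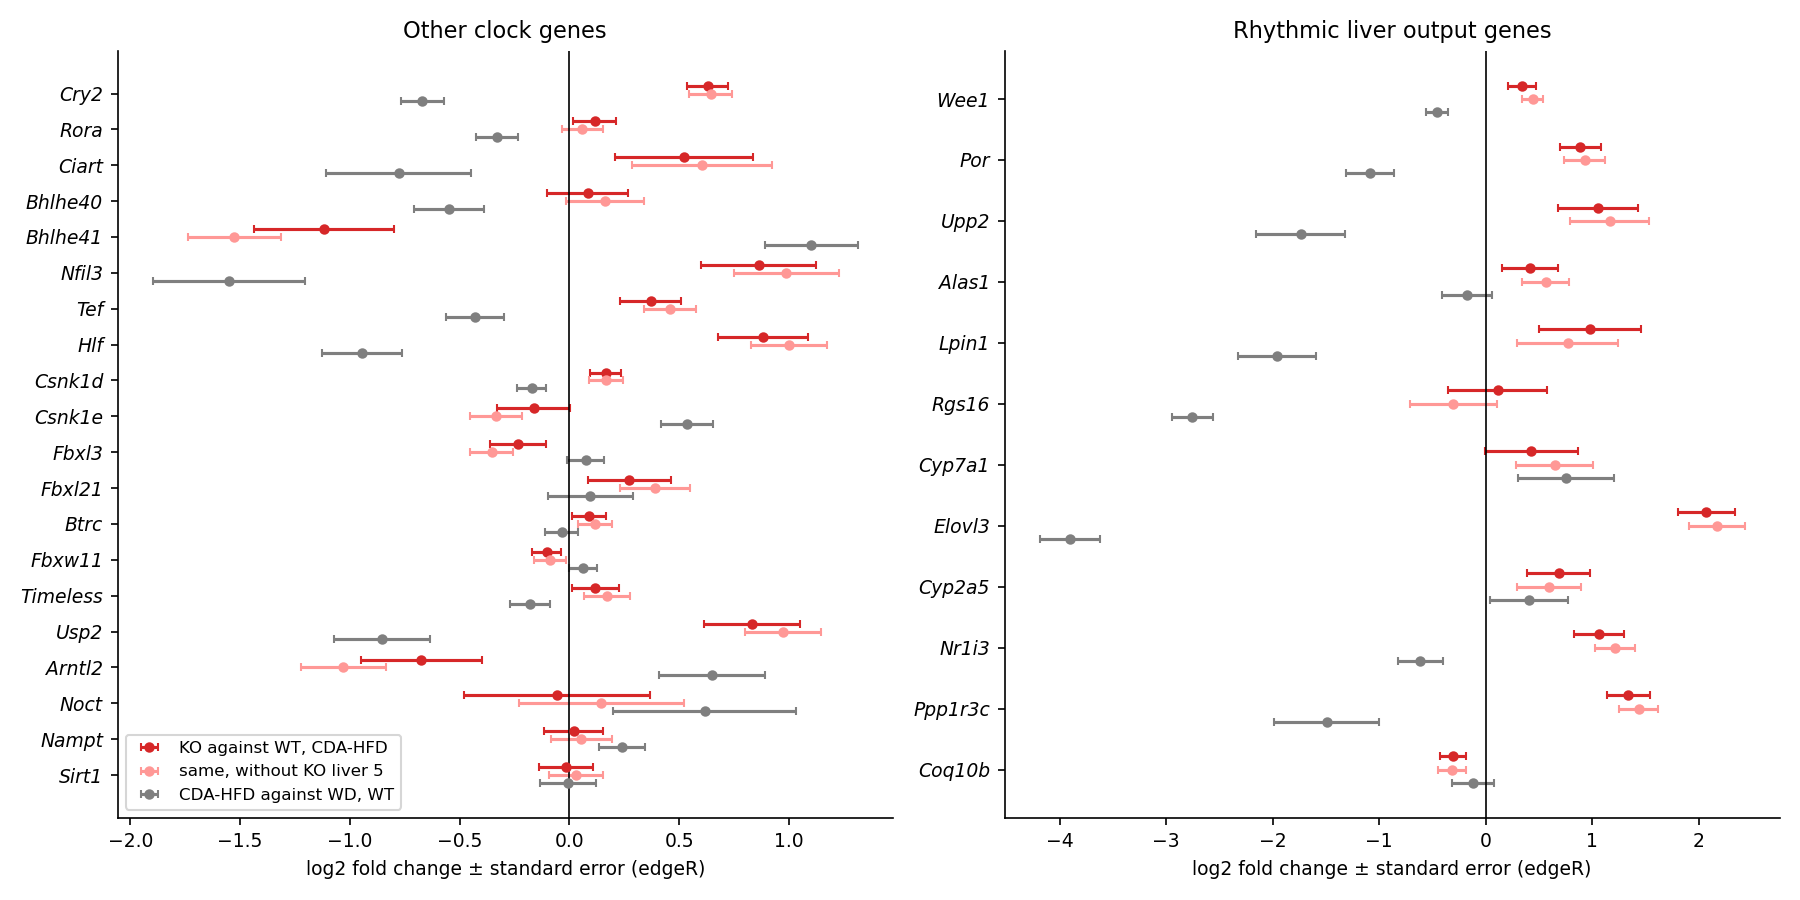
Log2 fold changes with standard errors (edgeR, horizontal axis) of other clock genes (left) and of rhythmic liver output genes (right), for KO against WT on CDA-HFD with all livers (red) and without KO liver 5 (pale red), and for CDA-HFD against WD in WT livers (grey). Elovl3 sits at 2.07 for KO and at -3.90 for the diet.

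Of 12 liver genes known to follow the clock, 4 were higher in KO than in WT livers on CDA-HFD and none was lower, beside 15.5% of all genes in either direction. Elovl3, a fatty acid elongase, had a log2 fold change of 2.07 (SE 0.27, edgeR adjusted p = 0.00461), with 2.48 to 4.23 CPM in WT and 8.67 to 23.4 CPM in KO livers. Ppp1r3c, a glycogen-targeting subunit of protein phosphatase, had 1.34, Nr1i3 (CAR) 1.06 and Por, the electron donor of cytochromes P450, 0.89. Ppp1r3c read 9.40 to 16.3 CPM in WT and 22.8 to 44.1 CPM in KO livers, and Por 236 to 474 and 589 to 809 CPM. The share of all genes without overlap between the groups was not computed, so nothing is read from these gaps. Without KO liver 5, 6 of 12 were higher, near the 41.4% of all genes. On WD none of 12 passed in edgeR or DESeq2, and none had an unadjusted p under 0.05. Between the diets in WT livers 8 of 12 were lower on CDA-HFD: Elovl3 (-3.90), the G protein regulator Rgs16 (-2.75), Lpin1 (-1.96), Upp2 (-1.74), Ppp1r3c (-1.49), Por (-1.09), Nr1i3 (-0.61) and Wee1 (-0.46), beside 51.1% of all genes in either direction. In KO livers Rgs16 (-2.51) and Elovl3 (-2.04) were lower and Cyp2a5 (1.55) was higher, beside 17.0% of all genes. Without KO liver 5 on CDA-HFD Cyp7a1, the rate-limiting enzyme of bile acid synthesis, was higher as well (1.15), beside 17.4% of all genes. None passed in the interaction in edgeR with all livers (4 at an unadjusted p under 0.05, 1 with DESeq2), beside 0.556% of all genes, and 2736 of 17804 at the unadjusted p. Elovl3 (1.96, edgeR adjusted p = 0.0316) and Nr1i3 (1.16, edgeR adjusted p = 0.0185) passed there without KO liver 5, beside 11.9% of all genes.

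Genes that answer to the signals that set the liver clock were counted beside these. Their counts stand beside 51.1% of all genes between the diets in WT livers, 17.0% in KO livers and 15.5% between KO and WT livers on CDA-HFD, so that small counts between the diets in WT livers lie below the share of all genes. An unadjusted p under 0.05 was reached by 6076 of 17204 genes between KO and WT livers on CDA-HFD and by 1702 of 15848 on WD. Between the diets in KO livers 5452 of 16387 genes reached it, and in the interaction 2736 of 17804. Genes raised by feeding moved most with diet: 9 of 9 were lower on CDA-HFD in WT livers (Me1 most significantly, at -3.46) and 8 of 9 in KO livers (Me1, -3.58), and none of 9 passed between KO and WT livers in edgeR on either diet (on CDA-HFD 4 had an unadjusted p under 0.05 and 2 passed with DESeq2, on WD 0 and 0). Of 10 genes raised by fasting, 3 were lower on CDA-HFD in WT livers and 1 in KO livers (G6pc, -1.06), and none passed between KO and WT livers in edgeR on either diet (3 had an unadjusted p under 0.05 on each diet, and 2 passed with DESeq2 on CDA-HFD and 1 on WD). Of 8 genes raised by glucocorticoids, 4 were lower and 1 higher on CDA-HFD in WT livers (Sgk1, 1.39) and none in KO livers in edgeR (3 at an unadjusted p under 0.05, 1 with DESeq2), and between KO and WT livers on CDA-HFD Fkbp5 was higher (1.70) and Sgk1 lower (-0.90).

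Of 8 genes that respond to temperature, 2 were higher on CDA-HFD in WT livers (Hspa1a, 1.79) and 1 in KO livers (Hspa1a, 1.56), and between KO and WT livers on CDA-HFD the cold-inducible Rbm3 was lower (-0.79). Of 10 immediate early genes, 4 were higher and 2 lower on CDA-HFD in WT livers (Atf3, 2.41), 2 of 9 tested were higher in KO livers (Egr1, 1.13), and 4 were lower in KO than in WT livers on CDA-HFD (Jun, -0.48). None of these 5 lists had a gene past the threshold in edgeR between KO and WT livers on WD or in the interaction. On WD, DESeq2 passed 1 immediate early gene, of 5 with an unadjusted p under 0.05 in edgeR, and no glucocorticoid or temperature gene. In the interaction, each list had 1 gene with an unadjusted p under 0.05 except the immediate early genes, which had 0, and DESeq2 passed 1 glucocorticoid gene.

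The counts of these 5 lists were also taken without KO liver 5 on CDA-HFD. Between KO and WT livers, 41.4% of all genes then passed, and with them 3 feeding genes were higher and 1 lower, 1 fasting gene was higher and 3 lower (Igfbp1, -2.88), 1 temperature gene was higher and 1 lower (Rbm3, -1.07), and 1 immediate early gene was higher and 7 lower (Atf3, -2.34). Fkbp5 (1.71) and Sgk1 (-1.19) stayed the 2 glucocorticoid genes that passed. Between the diets in KO livers, 17.4% of all genes passed. Of the lists, 3 fasting genes (Txnip, -1.28) and 1 temperature gene (Cirbp, -0.65) were lower and 1 temperature gene was higher. The counts of the feeding, glucocorticoid and immediate early genes were as with all livers in edgeR. In the interaction, 11.9% of all genes passed. Among them were 2 glucocorticoid (Fkbp5, 1.92), 2 fasting (Cpt1a, 0.61), 1 feeding, 1 temperature (Rbm3, -0.91) and 0 immediate early genes. The part of feeding state, hormones, temperature or handling in the clock gene values was not tested.

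Cell type markers also differed between the diets in WT livers. Here too 51.1% of all genes passed in WT and 17.0% in KO livers. On CDA-HFD, 5 macrophage markers of 8 were higher (Trem2 with the smallest p, 4.19) and 1 lower, 7 of 8 stellate cell (Pdgfrb, 1.73), 6 of 6 cholangiocyte (Epcam, 3.59), 3 of 6 lymphocyte (Ltb, 2.67) and 1 of 3 neutrophil markers (S100a9, 1.40, 0 with DESeq2) were higher, and 3 of 6 hepatocyte (Ttr, -1.05) and 5 of 6 endothelial markers (Cdh5, -0.74) were lower. In KO livers 4 of 8 macrophage (Trem2, 2.70), 1 of 8 stellate cell (Reln, 0.54), 3 of 6 cholangiocyte (Epcam, 2.51) and 2 of 4 lymphocyte markers (Cd3e, 1.44) were higher, 1 of 6 hepatocyte markers was lower (Cyp3a11, -0.89), and none of 6 endothelial and 2 neutrophil markers passed in edgeR or DESeq2, with 1 endothelial marker at an unadjusted p under 0.05. These counts were the same without KO liver 5 on CDA-HFD except for lymphocyte markers, of which 1 of 4 was higher. On WD none of these markers passed between KO and WT livers in edgeR, where 1 hepatocyte, 1 macrophage, 1 stellate cell and 1 endothelial marker had an unadjusted p under 0.05, and DESeq2 passed 1 hepatocyte and 1 endothelial marker. Of all genes, 1702 of 15848 had such an unadjusted p on WD, and 5452 of 16387 between the diets in KO livers.

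Several of the genes share exon sequence with a neighbour on the other strand. In the GENCODE annotation of GRCm38, Nr1d1 (ENSMUSG00000020889.11, chromosome 11, 98767932 to 98775333, minus strand) shares 263 bases, 8.55% of its exon length, with Thra, and Dbp (ENSMUSG00000059824.12, chromosome 7, 45705088 to 45710203, plus strand) shares 539 bases, 18.0%, with Sphk2. Thra was 0.35 higher on the log2 scale on CDA-HFD in WT livers (edgeR adjusted p = 0.0432) and did not pass in the other comparisons with all livers, while Nr1d1 was lower there. Thra was lower in KO than in WT livers on CDA-HFD without KO liver 5 (-0.39, edgeR adjusted p = 0.0411). Whether counting used strand is not given in the sources used here, so reads of the shared bases may count for either gene or for neither.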

How the data were processed

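RNA-seq was done on 20 livers, 5 per group, grouped by the sample labels. The authors deposited raw gene counts, whole numbers without normalization. The processing notes name the build mm10, and the aligner, counter and strand setting are not given in the sources used here. The labels name a directional library kit and the paper another kit. Entries for unassigned reads (5) were left out of every fit. In each liver 20.7 to 28.8% of the reads fell outside genes, 0.800 to 1.03% were ambiguous and 18.0 to 28.7% were not unique, each of all reads in the table.

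The main test was the quasi-likelihood F test of edgeR 4.0.16 (with limma 3.58.1, in R 4.3.3) on genes kept by filterByExpr and scaled by TMM, in 10 livers per comparison and 20 for the interaction. The threshold was an adjusted p of 0.05 by the Benjamini-Hochberg method over all genes tested. DESeq2 1.42.0, other scalings and filters, a replicate block, a fit of all 20 livers and leaving out each liver were alternatives, and the script was tested on simulated data. The CPM of single genes was also compared by an exact two-sided permutation test (252 splits), and correlations by 100000 permutations within groups, in Python 3.11.15 with figures in matplotlib 3.10.9. Log2 CPM used a prior count of 2.

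Named were the 10 clock genes, Cideb, Thra, every passing member of the lists of other clock genes and outputs, the gene of smallest adjusted p of each other list (glucocorticoid, fasting, feeding, temperature, immediate early, cell type markers), and the 5 genes most and least like Arntl among genes averaging 2 or more in log2 CPM, without predicted genes. On WD, Timeless and Cry2 were named after their values were seen. Some genes that this rule would name are not reported here. The clock genes and the lists were chosen with earlier results of these data known. Libraries of a group differed by 6.94 to 124 times the counting noise over 40 pairs, so none was a copy.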

Additional observations from a re-analysis of the deposited data

Results flagged for a closer look

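Of 48 groups of 5 livers examined (10 genes and both ratios in 4 groups), 4 held a liver whose gap to its nearest neighbour exceeded the 95% critical value of 0.71 of the range, where chance gives about 5%, or 2.4 groups. Npas2 in KO liver 5 on CDA-HFD was 1.08 CPM, against 0 to 0.221 CPM in the other 4 livers, a gap of 0.796 of the range. Nr1d1 in KO liver 4 on WD was 103 CPM, against 59.7 to 68.8 CPM, a gap of 0.788. The log2 ratio of Arntl to Nr1d1 in WT liver 3 on WD was -2.26, against -4.15 to -3.66, a gap of 0.743. The log2 ratio of Npas2 to Dbp in WT liver 1 on WD was -10.9, against -7.92 to -6.79, a gap of 0.722, and that liver had 0 Npas2 reads, so that its ratio is set by the 0.5 added to the reads.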

How the results depend on the processing

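For KO against WT on CDA-HFD the count of clock genes past the threshold was 1, 3 with DESeq2, 2 with a replicate block and 2 in a fit of all 20 livers, and 0 to 4 without single livers. For CDA-HFD against WD it was 4 in WT livers (5 with DESeq2, 2 in the fit of all 20 livers, 2 to 4 without single livers) and 2 in KO livers (1 with a replicate block, 2 to 5 without single livers). The interaction gave 0 and 0 to 2 without single livers, and KO against WT on WD 0 throughout. Residuals of same-numbered livers correlated between -0.367 and 0.349. Livers of unlike numbers were not correlated as a reference, so whether replicate numbers pair the livers is not settled. No call is read from the replicate block. 

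With library size alone, the sign turned for Clock in KO against WT on CDA-HFD (-0.16) and in the interaction (-0.16), for Arntl (0.075), Clock (0.33), Per2 (0.24), Cry1 (0.11) and Nr1d2 (0.27) between the diets in WT livers, and for Clock (0.17), Per1 (0.25) and Nr1d2 (0.013) in KO livers. The cause was not tested. The r with Arntl turned for Npas2 (-0.10) and Per1 (-0.46) in CDA-HFD livers alone and for Nr1d2 in WD livers alone (0.032) and without KO liver 5 on CDA-HFD (0.052). Leaving out single livers turned signs only for values near 0. These were, in KO against WT on WD, Arntl (-0.12 to 0.36), Clock (-0.047 to 0.094), Cry1 (-0.097 to 0.22), Per2 (-0.066 to 0.13) and Nr1d2 (-0.066 to 0.039), on CDA-HFD Clock (-0.023 to 0.11), Per1 (-0.091 to 0.086) and Dbp (-0.18 to 0.0072), between the diets in KO livers Per1 (-0.12 to 0.067), and in the interaction Clock (-0.045 to 0.10).

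Genes past the threshold numbered 12 for KO against WT on WD (164 with DESeq2, 38 without a filter, 26 with all 20 livers, 2 with the block, 1 to 33 without single livers), 2664 on CDA-HFD (1709 with library size, 4144 with DESeq2, 4170 with all 20 livers, 709 to 7201 without single livers), 2792 between the diets in KO livers (4476 with all 20 livers, 1568 to 2881 without single livers) and 99 in the interaction (44 with library size, 434 with DESeq2, 52 without a filter, 8 with the block, 35 to 2138 without single livers). Low counts limit Npas2, which 2 comparisons could not test. The list counts and correlations without KO liver 5 were added, and this liver was singled out among the fits without 1 liver, after seeing the data.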
